A study of Mus musculus with 12 samples.

Results

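The genes of the synaptonemal complex and the chromosome axis were taken as 10 genes, chosen by Ensembl gene identifier and chromosome, out of 55416 genes in the input count files. All 10 were found on the chromosome named for them, and all 10 were among the 23698 genes that passed the filter on low counts. In the table of RNA immunoprecipitation (RIP) ratios, which held rows of 7525 genes, 4 of the 10 had a row. Of the 23698 genes that passed the filter, 7007 (29.6%) had one. The rule of choice used no measured value, but the genes were chosen with earlier results of these data known.

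The material was fetal mouse ovary at E16.5, used whole, so germ cells and somatic cells were measured together. Each sample pooled 5 pairs of ovaries. The genotypes were Fmr1 knockout (KO) and wild type (WT), and every sample, WT included, carries the strain label B6.129P2-Fmr1tm1Cgr/J. For each genotype there were 3 input libraries, from which reads per gene were counted, and 3 libraries of RNA pulled down with the antibody FMRP ab17722, for which ratios were deposited. WT input ovaries came from littermates of the KO, and the labels do not say whether KO ovaries were homozygous. The samples are labelled biological replicates, without saying which pools shared a litter.

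The synaptonemal complex is the protein zipper that holds homologous chromosomes together during meiotic prophase. Each chromosome is first organised along an axis built on cohesin, to which SYCP2 and SYCP3 bind as the lateral element. SYCP1 forms the transverse filaments that bridge paired axes, and SYCE1, SYCE2, SYCE3 and TEX12 form the central element in the middle. HORMAD1 and HORMAD2 mark axes that have not yet paired and are stripped from paired ones by the ATPase TRIP13. In female mice this happens before birth, when oocytes in the fetal ovary pass through prophase. FMRP, the product of Fmr1, is an RNA-binding protein best known for controlling translation in neurons.

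Promoter sequences are shown for the 4 genes with values in both measurements, Tex12, Syce2, Sycp1 and Sycp3. They come from RefSeq (build GRCm38.p6), run from 250 bases before the gene start to 50 bases after it, and read 5′ to 3′ on the strand of the gene. All 10 genes were matched there. Capitals mark matches, on either strand, to an E-box (CACGTG), an E2F6-type motif (GGCGGGAA) and a STRA8-type motif (CNCCTCAG), which are motifs known from promoters of meiotic genes. The windows are chr9:50561219-50561518 (minus strand) for Tex12, chr8:84872008-84872307 (plus) for Syce2, chr3:102936051-102936350 (minus) for Sycp1 and chr10:88459337-88459636 (plus) for Sycp3.
Tex12: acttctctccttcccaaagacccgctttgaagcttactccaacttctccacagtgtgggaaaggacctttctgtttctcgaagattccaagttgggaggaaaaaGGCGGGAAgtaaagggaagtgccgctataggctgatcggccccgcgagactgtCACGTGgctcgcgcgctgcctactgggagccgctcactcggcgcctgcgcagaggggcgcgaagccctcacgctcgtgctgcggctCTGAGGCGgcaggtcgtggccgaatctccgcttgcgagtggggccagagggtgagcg
Syce2: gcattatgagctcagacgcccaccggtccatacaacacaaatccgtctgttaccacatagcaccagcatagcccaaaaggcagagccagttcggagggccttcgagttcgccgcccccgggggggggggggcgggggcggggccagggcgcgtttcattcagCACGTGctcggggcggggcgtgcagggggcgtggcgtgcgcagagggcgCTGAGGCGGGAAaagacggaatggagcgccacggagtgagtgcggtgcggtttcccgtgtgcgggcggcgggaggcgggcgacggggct
Sycp1: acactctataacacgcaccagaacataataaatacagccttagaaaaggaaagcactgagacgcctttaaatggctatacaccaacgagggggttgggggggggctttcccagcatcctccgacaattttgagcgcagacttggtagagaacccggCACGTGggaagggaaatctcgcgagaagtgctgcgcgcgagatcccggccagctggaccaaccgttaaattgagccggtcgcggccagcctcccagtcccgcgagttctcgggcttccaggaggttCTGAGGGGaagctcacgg
Sycp3: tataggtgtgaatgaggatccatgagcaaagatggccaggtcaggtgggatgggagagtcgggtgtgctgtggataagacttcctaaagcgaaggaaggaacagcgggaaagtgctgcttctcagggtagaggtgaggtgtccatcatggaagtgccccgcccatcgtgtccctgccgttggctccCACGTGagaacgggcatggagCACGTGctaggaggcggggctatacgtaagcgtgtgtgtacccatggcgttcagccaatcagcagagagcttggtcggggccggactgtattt

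An E-box lay in all 4 windows shown, and also in that of Hormad1, so that 5 of the 10 genes held it, beside 8.09% of the 27025 genes with a RefSeq window. In Tex12, Syce2 and Sycp1 the E-box began 93, 88 and 94 bases before the gene start. Sycp3 held 2, beginning 64 and 43 bases before it. The E2F6-type motif was found in Syce2, Tex12 and Hormad1 (3 of 10 genes, beside 2.52% of all). The STRA8-type motif was found in Sycp1, Syce2, Tex12 and Hormad2 (4 of 10, beside 9.12% of all). In Syce2 the matches to these last motifs overlap. RefSeq gives Syce2 a further start with its own window, chr8:84871861-84872160, which holds none of these 3 motifs; a gene counts as holding a motif if any of its windows does. The other 3 motifs searched were CCAAT (2 of 10 genes, beside 41.1% of all), GTTGCC (2 of 10, beside 14.1%) and TGACGTCA (0 of 10, beside 2.03%). A match is a string of letters in the window and was not tested as a binding site.

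The labels were checked on Fmr1 itself. Its input level was 85.6, 123 and 93.4 CPM in KO and 204, 213 and 221 CPM in WT. The difference, -1.08 on the log2 scale (SE 0.11), passed with an adjusted p of 0.00775 (edgeR). Its RIP ratio was 0.388 to 0.439 in KO and 1.34 to 1.43 in WT. Input libraries held 18880238 to 25707718 counted reads.

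Levels within the input RNA differed widely among the 10 genes. They are given as CPM, counts scaled to the TMM-adjusted library size, and are divided by the exon length in kb wherever genes are compared with each other. In WT the highest was Sycp3 (ENSMUSG00000020059), the lateral element protein, at 38.0 ± 4.63 CPM per kb (SD, n = 3), above 95.0% of tested genes. Next came Sycp1 (ENSMUSG00000027855), the transverse filament, at 21.4 ± 3.47, then the central element genes Syce2 (ENSMUSG00000003824) at 21.2 ± 2.76 and Syce3 (ENSMUSG00000078938) at 20.2 ± 3.32. These were followed by Tex12 (ENSMUSG00000032065) at 15.6 ± 1.13, Syce1 (ENSMUSG00000025480) at 12.9 ± 2.097 and Sycp2 (ENSMUSG00000060445) at 11.3 ± 2.65.

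Transcripts of the proteins that mark and remodel the axis were lowest. Hormad1 (ENSMUSG00000028109) stood at 5.25 ± 1.3 CPM per kb, Trip13 (ENSMUSG00000021569) at 4.97 ± 0.776 and Hormad2 (ENSMUSG00000020419) at 3.60 ± 0.694, the last above 54.1% of tested genes. In WT the libraries of neighbours in this order overlapped, except between Sycp3 and Sycp1, between Sycp2 and Hormad1, and between Trip13 and Hormad2. The structural genes of the complex therefore lay above the HORMA genes and Trip13 in every WT library, while each neighbour from Sycp1 down to Sycp2 overlapped the next. The KO order was the same apart from Tex12, whose KO mean of 23.2 ± 2.09 lay beside Syce3 at 23.2 ± 3.53.

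**Figure D1:**
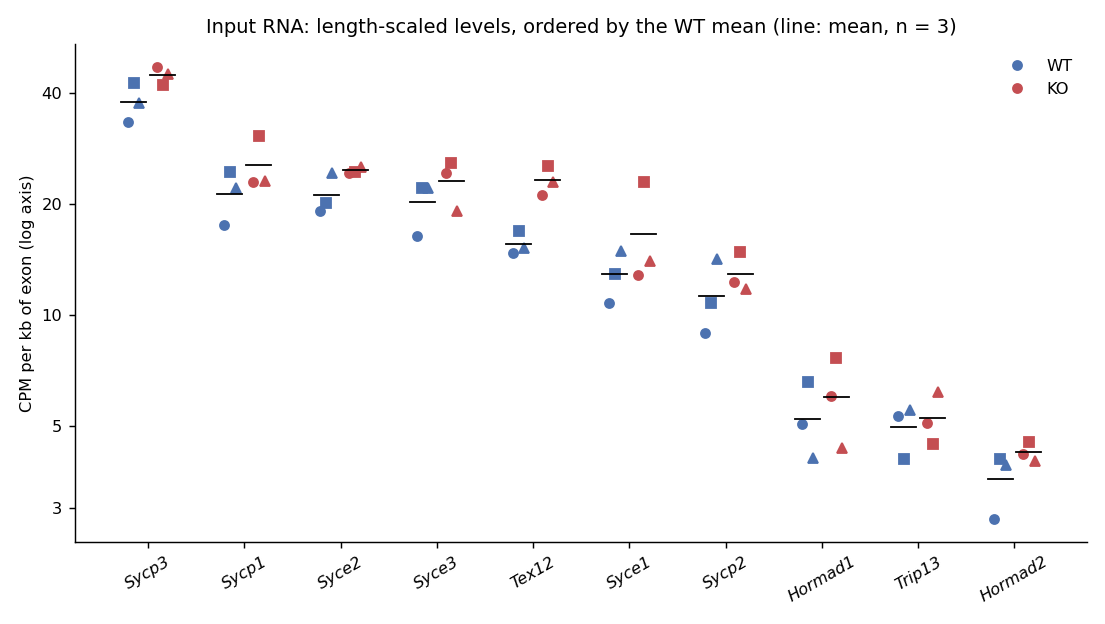
CPM per kb of exon in the input libraries (log axis) for each gene, ordered by the WT mean; symbols are replicates 1 (circle), 2 (square) and 3 (triangle), blue WT and red KO, and lines are means of 3 libraries. Sycp3 lies above all others in every library, and Hormad1, Trip13 and Hormad2 lie below the other 7.

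The level of Sycp3 carries a limit of the counting. Of its 1264 exon bases, 660 (52.2%) overlap exons of a gene on the opposite strand, ENSMUSG00000060002. The counting command in the file headers carried no strand option and no option to keep reads that overlap exons of several genes, so such reads are left out. Divided by the 604 bases that are not shared, the WT level of Sycp3 was 79.5 ± 9.68 CPM per kb (SD, n = 3) and the KO level 93.9 ± 5.39. The other 9 genes shared no exon base with another gene.

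The first comparison asked whether these transcripts differed in abundance in Fmr1 KO ovaries. None of the 10 passed (edgeR quasi-likelihood test, Benjamini-Hochberg adjusted p under 0.05 over all tested genes). In either direction 0.0422% of all tested genes passed, each of them lower in KO and 0 higher. All 10 estimates of the complex and axis genes were higher in KO. Their log2 changes ran from 0.077 to 0.57 with a median of 0.23, against a median of -0.0020 over all tested genes. At an unadjusted p under 0.05 there were 3, Tex12, Syce2 and Sycp3, beside 5.9% of all tested genes. In whole ovary, a different number of oocytes and a different amount of RNA per oocyte cannot be told apart.

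Tex12, whose product pairs with SYCE2 in the central element, had the largest estimate. It stood at 21.6, 25.8 and 23.4 CPM in KO replicates 1, 2 and 3 and at 14.99, 17.2 and 15.5 CPM in the WT replicates. Every KO library lay above every WT library, which held for 1 of the 10 genes, beside 5.22% of all tested genes. The means were 23.6 ± 2.13 and 15.9 ± 1.15 CPM (SD, n = 3 each), with a log2 change of 0.57 (SE 0.12) and an adjusted p of 0.122 (edgeR). The gene lies on chromosome 9 (50468119 to 50472625, minus strand, in the coordinates of the count files). It had 327 to 622 reads per library. DESeq2 called it (adjusted p = 0.00576), as did edgeR with no filter on low counts (adjusted p = 0.00601), both with a log2 change of 0.57.

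Syce2, the partner of Tex12, stood at 47.9, 48.3 and 49.8 CPM in KO and at 37.7, 39.7 and 47.9 in WT. The KO libraries lay close together, and WT replicate 3 reached the level of the KO replicates. The estimate was 0.22 on the log2 scale (SE 0.094), with an adjusted p of 0.781 (edgeR).

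Syce1, which links SYCP1 to the central element, stood at 18.8, 33.5 and 20.5 CPM in KO and at 15.7, 18.9 and 21.9 in WT. KO replicate 2 stood apart from the other 5 libraries, and without it the log2 change of 0.37 (SE 0.21) became 0.063. Syce3, the small protein that recruits the others, stood at 13.5, 14.3 and 10.6 CPM in KO and at 9.07, 12.2 and 12.3 in WT, with a log2 change of 0.20 (SE 0.16). This became 0.067 without WT replicate 1, 0.11 without KO replicate 2 and 0.32 without KO replicate 3. The genotypes overlapped for both genes.

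Sycp1, on chromosome 3 (102725815 to 102843416, minus strand), stood at 81.9, 109 and 82.5 CPM in KO and at 62.6, 86.8 and 78.8 in WT. WT replicate 2 lay above 2 of the KO libraries, with an estimate of 0.26 on the log2 scale (SE 0.15) and an adjusted p of 0.920 (edgeR). The estimate was 0.11 without KO replicate 2 and 0.14 without WT replicate 1, and reached 0.37 without WT replicate 2.

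Of the lateral element genes, Sycp3 stood at 59.8, 53.3 and 57.0 CPM in KO and at 42.3, 54.0 and 47.7 in WT. Only WT replicate 2 and KO replicate 2 overlapped, with an estimate of 0.24 on the log2 scale (SE 0.091) and an adjusted p of 0.698 (edgeR); without WT replicate 1 it was 0.16. Sycp2, the larger lateral element protein, stood at 73.6, 88.5 and 70.2 CPM in KO and at 53.4, 64.5 and 84.7 in WT. WT replicate 3 lay above 2 of the KO libraries, and the log2 change of 0.20 (SE 0.18) became 0.058 without WT replicate 1, 0.094 without KO replicate 2 and 0.40 without WT replicate 3.

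Hormad1 stood at 10.4, 13.2 and 7.53 CPM in KO and at 8.76, 11.4 and 7.07 in WT, so each genotype had a low replicate 3 and a high replicate 2. Hormad2 stood at 11.5, 12.4 and 11.02 CPM in KO and at 7.65, 11.1 and 10.7 in WT, where WT replicate 1 alone was low. Their log2 changes were 0.20 (SE 0.20) and 0.25 (SE 0.16), and that of Hormad2 was 0.093 without WT replicate 1.

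Trip13, the remodeller of the HORMA proteins, had the smallest estimate. It stood at 17.7, 15.6 and 21.5 CPM in KO and at 18.5, 14.2 and 19.2 in WT, and the libraries of the genotypes were interleaved. The estimate was 0.077 on the log2 scale (SE 0.15), with an adjusted p of 0.983 (edgeR). TRIP13 also acts in the mitotic checkpoint, so its transcript is not restricted to meiotic cells.

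**Figure D2:**
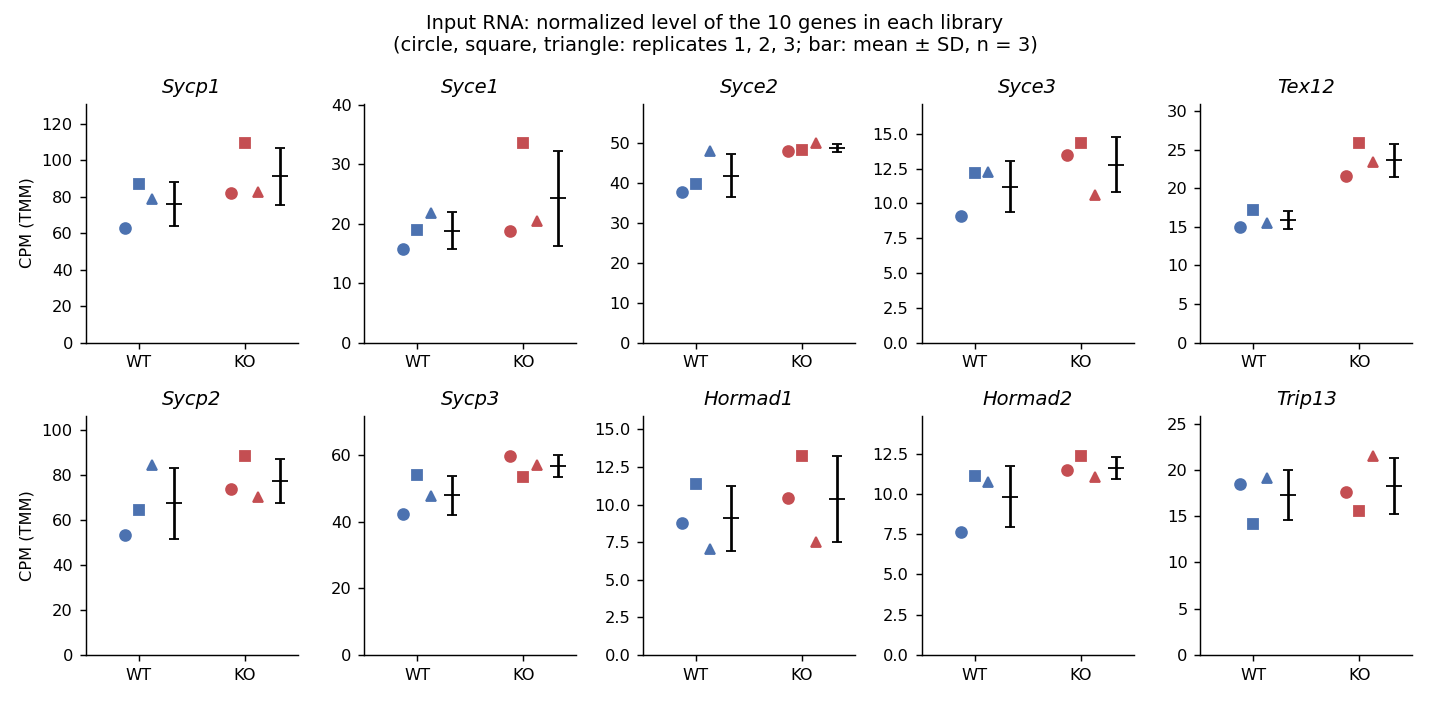
CPM of each gene in the 6 input libraries, each panel with its own axis from 0; symbols are replicates 1 (circle), 2 (square) and 3 (triangle) and bars are mean ± SD of 3 libraries. Tex12 is the gene whose KO libraries, 21.6 to 25.8 CPM, all lie above its WT libraries, 14.99 to 17.2 CPM.

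The libraries contributed unequally to the common direction. WT replicate 1 was the lowest of all 6 libraries for 8 of the 10 genes, and KO replicate 2 the highest for 7. Summed over the 10 genes, KO replicates 1, 2 and 3 held 357, 414 and 354 CPM and WT replicates 271, 330 and 346 CPM, so the sums did not overlap but KO replicates 1 and 3 lay close to WT replicate 3. Without WT replicate 1 or without KO replicate 2 the median log2 change was 0.15, and without WT replicate 2 it was 0.34. Hormad1 turned to -0.016 without KO replicate 2, and Trip13 to -0.053 without KO replicate 3 and -0.046 without WT replicate 2. Tex12 ranged from 0.50 to 0.63 over these fits, with adjusted p from 0.0765 to 0.479 (edgeR).

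**Figure D3:**
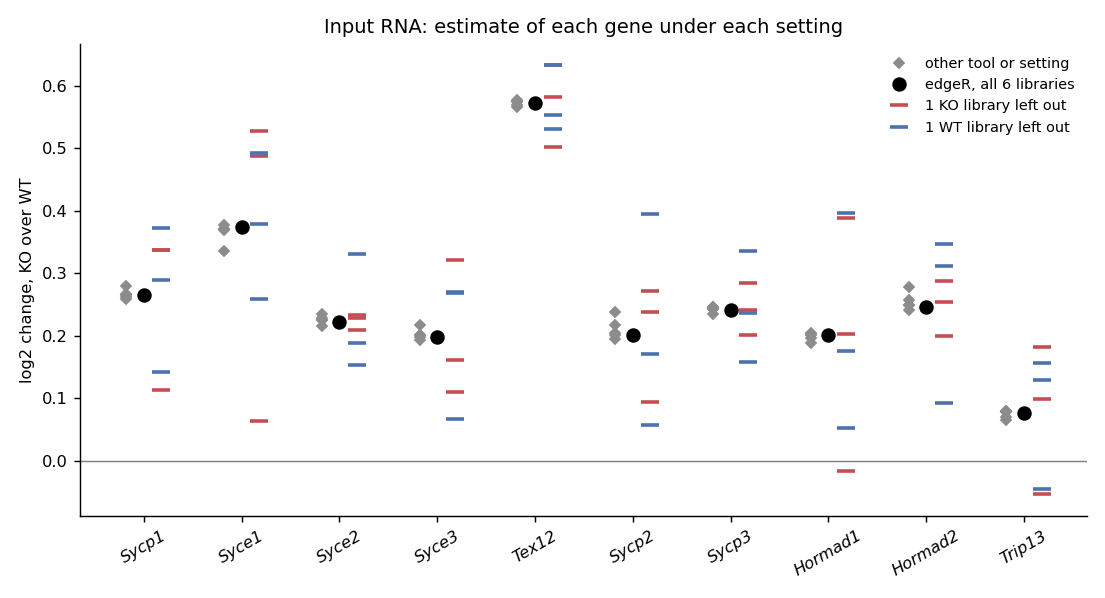
The log2 change (KO over WT) of each gene in edgeR with all 6 libraries (black), under other tools or settings (grey) and with 1 KO (red) or 1 WT (blue) library left out. Tex12 stays between 0.50 and 0.63, and Hormad1 and Trip13 pass below 0 in 1 and 2 fits.

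The lowest and the highest library of the germ cell markers were those of the 10 genes. Summed over 6 markers (Ddx4, Dazl, Mael, Stra8, Meioc and Figla), KO libraries held 222 to 301 CPM and WT libraries 178 to 243 CPM, again with WT replicate 1 lowest and KO replicate 2 highest. In between the order differed, since WT replicates 2 and 3 (237 and 243 CPM) lay above KO replicates 1 and 3 (233 and 222 CPM). None of the 6 was at 0 and none passed (edgeR). At an unadjusted p under 0.05, Ddx4 and Meioc were higher in KO and Figla was lower. Relative to this sum, the 10 genes together stood at 1.53, 1.38 and 1.596 in KO and at 1.52, 1.39 and 1.43 in WT, so the genotypes overlapped once the members were set against germ cell RNA. The part of oocyte content in the estimates was not tested.

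Single germ cell markers did not share a direction: of the 6, 4 had a higher estimate in KO and 2 a lower one. Stra8 had a log2 change of 0.42 (SE 0.23) and Mael of -0.13 (SE 0.14). Ddx4, the germ cell RNA helicase, had a log2 change of 0.33 (SE 0.14), Meioc, which sustains the meiotic programme, 0.44 (SE 0.14; called with no filter on low counts, adjusted p = 0.00198), and Dazl, a translational regulator of germ cells, 0.22 (SE 0.16). Figla, an oocyte transcription factor that acts towards follicle formation, was lowest, at -0.87 (SE 0.29, adjusted p = 0.610, edgeR), from 1.72, 2.70 and 1.96 CPM in KO and 2.60, 5.59 and 3.56 in WT. Of 6 gonadal somatic markers listed, 5 could be matched by place and span (Fst, Wnt4, Wt1, Gata4 and Nr2f2). Foxl2 could not, nor could Pecam1 of the endothelial markers, and both were left out. The 5 gonadal somatic markers summed to 784 to 847 CPM in KO and 789 to 823 in WT. Among markers of other cells, Cdh5 (endothelium) had a log2 change of -0.19 (SE 0.079). It was lower in KO at an unadjusted p under 0.05 (adjusted p = 0.776, edgeR). The others had log2 changes of 0.075 (Ptprc, leukocytes), -0.059 (Col1a1, stroma), -0.037 (Sox9) and 0.55 (Amh, SE 0.40), the last 2 known from Sertoli cells.

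Genes that work on the axis were examined beside the 10. Of 17 listed, 11 could be matched by place and span, and none passed in either direction (edgeR), with 4 at an unadjusted p under 0.05, all higher in KO (Smc1b, Msh5, Tex11 and Dmc1), beside 5.9% of all tested genes. Of these, all but Dmc1 had every KO library above every WT library (3 of 11 genes, beside 5.22% of all). Estimates ran from -0.20 for Rnf212, a crossover factor, to 0.50 for Msh5 (SE 0.15, adjusted p = 0.485, edgeR), which stabilises crossover intermediates. Their median was 0.14. Smc1b, a cohesin subunit of the meiotic axis, stood at 223, 274 and 219 CPM in KO and at 152, 185 and 187 in WT, without overlap. The estimate was 0.45 on the log2 scale (SE 0.094), with an adjusted p of 0.190 (edgeR). It passed with DESeq2 (adjusted p = 0.00434) and in edgeR with no filter on low counts (adjusted p = 5.45e-07). Every KO library lay below every WT library for 0 of the 10 genes and 0 of these 11, beside 5.69% of all tested genes.

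**Figure D4:**
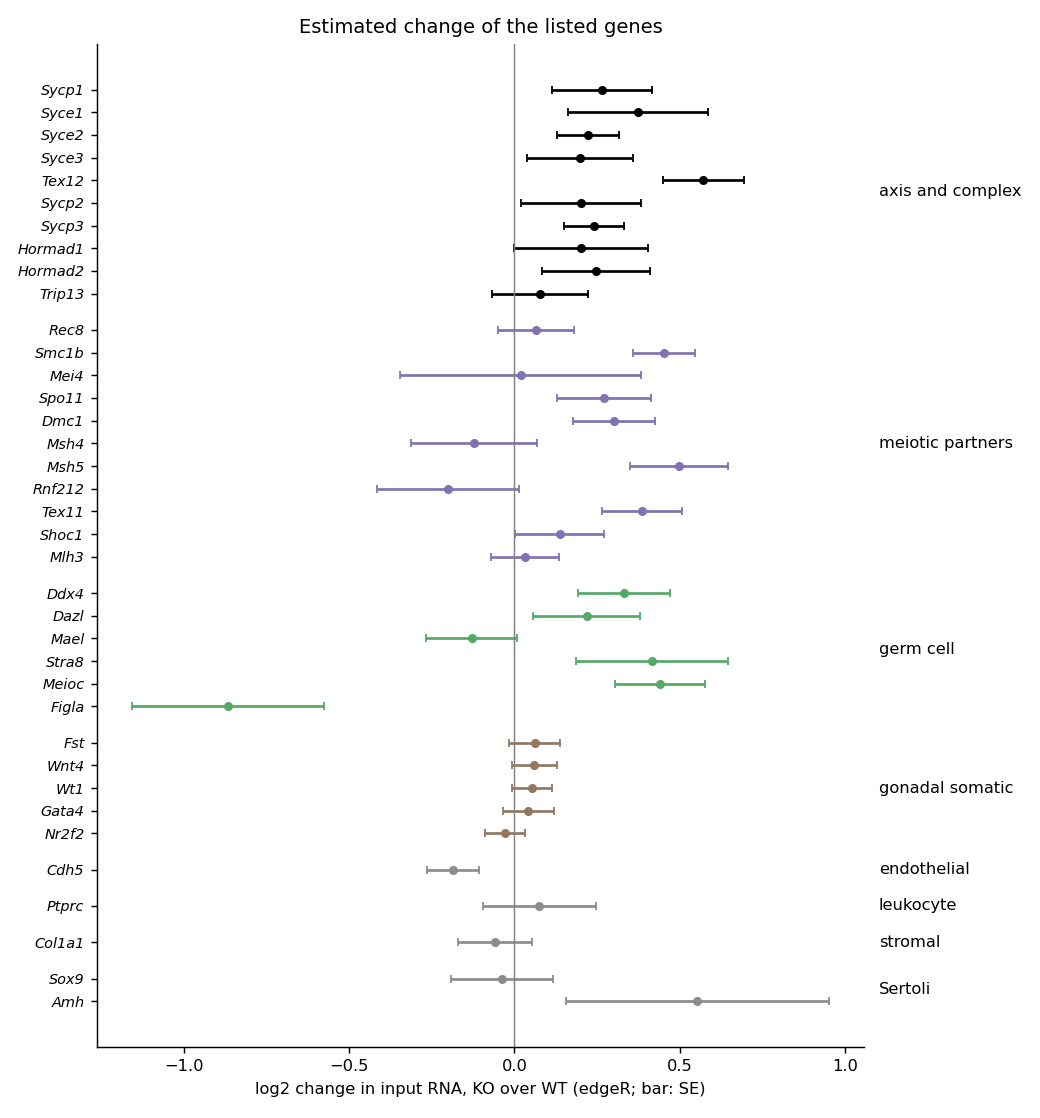
Estimated log2 change in input RNA (KO over WT) with its SE for the 10 genes (black), genes that work on the axis (purple), germ cell markers (green) and markers of other cells. All 10 black points lie right of 0, between 0.077 and 0.57, the gonadal somatic markers lie near 0, and Figla lies farthest left at -0.87.

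Among the listed partner and marker genes, those with the highest Pearson r between their log2 CPM and the mean of the 10 over the 6 input libraries were Dmc1 (Pearson r = 0.99, Spearman rho = 0.94), Smc1b (r = 0.98, rho = 1.00) and Ddx4 (r = 0.97, rho = 0.83). Dmc1 is the meiosis-specific strand exchange protein. The points share their libraries and their germ cell content. Without the 2 libraries farthest from the median, r was 0.77, 0.97 and 0.21, so the likeness of Ddx4 rests on those libraries. The order depends on the measure: Msh5 and Meioc (r = 0.96 each) had a rho of 1.00, and without those libraries an r of 0.84 and 0.91, above that of Dmc1.

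The second comparison set the RIP ratios of WT, where the antibody can find FMRP, against those of KO, taken as the background of the antibody. FMRP protein was not measured in these libraries, and Fmr1 RNA remained in KO input (85.6 to 123 CPM). The sources used here do not state what a ratio is taken against, or which stretch of the transcript a row covers, and the depth behind the ratios is unknown. Of the 4 rows, 0 passed (limma on log2(ratio + 1), adjusted p under 0.05), where 0.0% of all 14365 tested rows passed. The Fmr1 row given above was not among them, because its mean over the libraries lay below the filter of 1. With no filter on low ratios, 1 of 14447 rows passed, and it was none of these 4. All 4 had a WT mean above the KO mean, by 1.02-fold to 1.47-fold, against a median of 0.996-fold over all rows. Most rows of somatic markers lay lower. The median was 0.891-fold over 13 rows of gonadal somatic markers (3 above 1) and 0.841-fold over 8 rows of Col1a1 (0 above 1). The row of Sox9 stood at 0.749-fold and that of Cdh5 at 0.979-fold, near the median of all rows. The part of cell content in these ratios was not tested. At an unadjusted p under 0.05 there was 1 of 4, Syce2, beside 8.85% of all rows. None of the 4 had every WT library above every KO library, beside 8.39% of all rows.

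Sycp1 had ratios of 1.03, 1.29 and 1.64 in KO and of 2.07, 1.67 and 1.58 in WT. WT replicate 3 lay below KO replicate 3, and the other libraries were in order of genotype. The WT mean was 1.35-fold the KO mean, with a difference of 0.26 on the log2(ratio + 1) scale (SE 0.12, adjusted p = 0.575, limma).

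Syce2 had ratios of 1.11, 2.09 and 1.56 in KO and of 1.91, 2.62 and 2.47 in WT. KO replicate 2 lay above WT replicate 1, and the WT mean was 1.47-fold the KO mean (difference 0.38, SE 0.16, adjusted p = 0.554, limma). Its percentile among all rows was 36.9 in KO and 76.1 in WT.

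Tex12, the gene with the largest input estimate, had ratios of 1.40, 2.03 and 2.16 in KO and of 2.86, 1.19 and 2.07 in WT. The WT libraries held both the highest and the lowest of the 6 values. The difference was 0.060 (adjusted p = 0.960, limma), and it turned negative without KO replicate 1 (-0.056) or without WT replicate 1 (-0.12).

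Sycp3 had ratios of 1.45, 1.62 and 1.57 in KO and of 1.73, 1.41 and 1.61 in WT. All 6 lay within a narrow range, and the difference of 0.018 (adjusted p = 0.969, limma) also changed sign without KO replicate 1 (-0.0023) or without WT replicate 1 (-0.016). Exact permutation tests, two-sided, gave p = 0.2 for Sycp1 and Syce2 and p = 0.9 for Tex12 and Sycp3, where 0.1 is the smallest that 3 against 3 libraries allow.

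**Figure D5:**
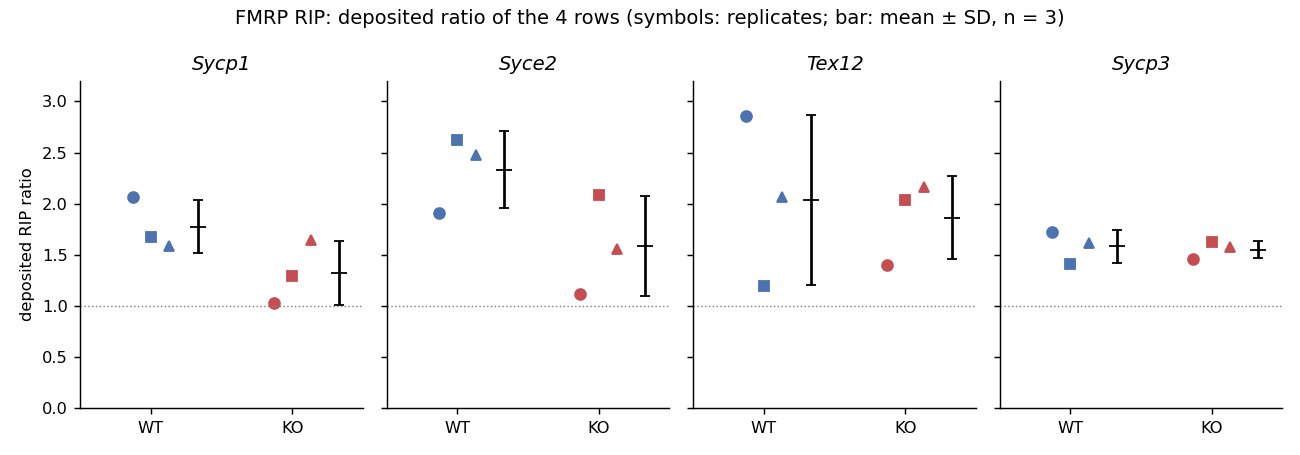
Deposited RIP ratio of the rows of Sycp1, Syce2, Tex12 and Sycp3 in each library; symbols are replicates 1 (circle), 2 (square) and 3 (triangle), bars are mean ± SD of 3 libraries and the dotted line is a ratio of 1. The genotypes overlap in all 4 panels, least in Sycp1 and Syce2.

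Only the row of Sycp1 belonged to its gene alone. The rows of Syce2 (chromosome 8, 85598740 to 85614850, plus strand), Tex12 and Sycp3 (chromosome 10, 88295431 to 88309098, plus strand) repeated all 6 values of the row of a gene on the opposite strand that overlaps them. For Syce2 this was ENSMUSG00000003809, which fits Gcdh of RefSeq in place and span, and for Tex12 ENSMUSG00000039217, which fits Il18. For Sycp3 it was again ENSMUSG00000060002. In WT input these 3 neighbours stood at 19.4, 8.96 and 68.8 CPM. Which of the overlapping transcripts the antibody carried cannot be told apart in this table.

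Rows of other germ cell and meiotic genes ran from below to above these. Meioc had 3 rows, with WT means 1.92-fold, 2.47-fold and 2.79-fold the KO means, the last of which was 1.47-fold without WT replicate 1. Mael, a piRNA pathway protein, had 1 row at 2.08-fold. The percentile of the Mael row among all rows was 0.055 in KO and 34.3 in WT. Its fold thus came with a KO ratio among the lowest of all rows. For the Meioc rows, in the order above, the percentiles were 6.77, 0.187 and 86.1 in KO. In WT they were 73.2, 66.1 and 97.8. Of the 6 germ cell markers, only 2, Meioc and Mael, had a row. In all 4 of their rows, 3 of them from Meioc, every WT library lay above every KO library, beside 8.39% of all rows. None passed (limma, smallest adjusted p = 0.377), and 3 had an unadjusted p under 0.05, beside 8.85% of all rows. The 7 rows of Smc1b ran from 0.863-fold to 1.86-fold, 2 of them without overlap, the row of Spo11 stood at 1.41-fold and the 2 rows of Mlh3 at 1.28-fold and 1.48-fold. Among the 10 genes of the complex and axis, no row reached 1.5-fold with all 6 libraries. With 1 library left out, Syce2 ran from 1.28-fold to 1.75-fold and Sycp1 from 1.21-fold to 1.53-fold.

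Exon numbers ran from 4 in Syce3 and 5 in Syce2 and Tex12 to 34 in Sycp1 and 45 in Sycp2, against a median of 8 over tested genes with several exons. The last 2 have more exons than 96.3% and 98.4% of those genes. Most of the 10 have short exons. The median exon was 71.5 bases in Hormad1, 75 in Syce1 and 84.5 in Sycp1, against 176 bases over those genes. For 8 of the 10 the median exon was shorter than in over 90% of these genes; the exceptions were Syce2 at 189 bases and Hormad2 at 147 bases. The submitters' processing notes list BWA 0.7.12, an aligner that does not split reads over introns, without saying which libraries it was used for. If it placed the input reads, reads across exon junctions were partly lost, which bears on levels compared between genes; its size was not tested.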

How the data were processed

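The count files deposited for the 6 input libraries hold raw counts per gene, made with featureCounts 1.6.3 over exons of Ensembl release 104, per the file headers. The RIP values are a linear ratio (fold enrichment) computed by the authors and deposited for 6 libraries. Per the submitters' processing notes, the tools were BWA 0.7.12, MACS2 2.1.0, FastQC and DESeq2 1.26.0, and the genome was GRCm38; what each was used for is not stated. The annotation of the count files is from a later build, and coordinates were left as given.

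The test of counts was edgeR 4.0.16 under R 4.3.3 (TMM, filterByExpr, robust quasi-likelihood), KO over WT, and ratios with limma 3.58.1 on log2(ratio + 1), columns centred on their medians, WT against KO, for rows whose mean reached 1. A difference on that scale understates the change of low ratios. P-values were adjusted by Benjamini-Hochberg over all genes or rows, at 0.05. Pools may share litters, so p-values measure the spread between these samples. Replicates differed by more than sampling noise (chi-square over degrees of freedom between 8.03 and 14.2). On simulated counts the edgeR step found 24 of 50 genes at a fold of 1.5 and 49 of 50 at a fold of 2. Counts were simulated with the same dispersion for all genes and changes in both directions. Ratios were simulated with the observed spread of each row and upward changes only, so the recoveries are not comparable. On the simulated ratios the limma step found 20 and 23 of 50 rows at these folds of ratio + 1. Each simulation held 50 changed genes or rows at each fold, more than passed in the data.

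Identifiers of the 10 genes and of listed genes were named where chromosome, strand and span (within 10%) fitted RefSeq. Every member was named, and so was every germ cell marker. From the partner and marker lists, the genes called under any setting were also named. So were the highest and lowest estimate of a list and the 3 genes most like the members' mean. The members, lists and motifs were chosen with earlier results of these data known. Alternatives were other tools, scalings, filters, pseudocounts, a replicate block and leaving out each library.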

Additional observations from a re-analysis of the deposited data

How the results depend on the processing

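Of the 10 genes, 0 were called by edgeR with TMM, with RLE size factors, with the replicate number as a block, by limma-voom, and with any 1 library left out (range 0 to 0). DESeq2 called 1 and edgeR with no filter on low counts called 1, in each case Tex12. These settings also called more of all genes, 41 of 23698 and 113 of 49570, against 10 of 23698. All 10 estimates stayed positive under every other tool, scaling and filter. The signs that turned were Hormad1 without KO replicate 2 (-0.016) and Trip13 without KO replicate 3 (-0.053) or WT replicate 2 (-0.046). No RIP row of these genes was called under any setting (0 to 0 with 1 library left out). Signs turned for Tex12 without KO replicate 1 (-0.056) or WT replicate 1 (-0.12), and for Sycp3 without the same libraries (-0.0023 and -0.016). With 1 library left out, the input estimates ran from -0.016 to 0.40 for Hormad1 and from -0.053 to 0.18 for Trip13, and the RIP differences from -0.12 to 0.27 for Tex12 and from -0.016 to 0.067 for Sycp3. The causes were not tested. With rows of a mean of at least 4, no member row was left.

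The labels do not say that replicate numbers pair the samples. Deviations of same-numbered input libraries correlated at -0.13, -0.054 and -0.067, and those of RIP libraries at -0.60, -0.34 and -0.22. These values gave no sign of a positive shared shift, but cannot show whether pools shared a litter. With the replicate block, 20 genes were called in all and 0 of the 10 genes, with Tex12 at an adjusted p of 0.223 (edgeR), and 0 RIP rows. Smc1b, called under none of the fits with 1 library left out, was called under the block (adjusted p = 0.0385, edgeR). The level of Sycp3 over its unshared exon bases, an alternative added after seeing the data, was 79.5 CPM per kb in WT against 38.0. Folds of the Meioc, Mael, Syce2 and Sycp1 rows with 1 library left out were also added then. The only one to move by over 1.5 times was a Meioc row without WT replicate 1, from 2.79-fold to 1.47-fold. No read depth stands behind the RIP ratios, so their counting error is unknown.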
